A study of Homo sapiens with 8 samples.

Results

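The genes studied here were 30 genes of cholesterol and fatty acid synthesis, taken by symbol from the 25192 genes that each gene table lists. They comprised 16 enzymes of the sterol arm, 9 enzymes of the fatty acid arm, and 5 regulators and sterol carriers. Messenger RNA was sequenced from the human colorectal cancer cell lines HT29 and SW480, both of which carry truncated APC, at 36 h after transfection with control siRNA (siCon) or an siRNA against PRDX2 (siPrdx2). PRDX2 encodes PrxII, a peroxidase that removes hydrogen peroxide. There were 4 groups of 2 libraries each: HT29 siCon, HT29 siPrdx2, SW480 siCon and SW480 siPrdx2. HT29 cells were grown in McCoy's 5A medium and SW480 cells in RPMI1840, both with 10% serum, so the cell line and its medium cannot be told apart. The labels name no batch, so any difference in library preparation between the lines cannot be told apart from them either. Both are established lines, the transfection was transient, and the siRNA sequence used for these libraries is not given in the sources used here. Because nothing says whether the duplicates came from separate transfections, the p-values measure only the spread between these libraries, which may be technical.

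Cells make cholesterol from acetyl-CoA through mevalonate, isoprenoid diphosphates, squalene and lanosterol, and they make fatty acids from the same acetyl-CoA through malonyl-CoA. Many enzymes of both routes are transcribed under the sterol regulatory element-binding proteins SREBP1 and SREBP2, which are made from SREBF1 and SREBF2. The escort protein SCAP carries these precursors from the endoplasmic reticulum for cleavage when sterols are low, and INSIG1 retains SCAP when sterols are high. In the intestinal epithelium and in tumours derived from it, both routes supply membranes of dividing cells.

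The libraries held 8857442 to 10164137 expected counts (reads assigned to genes by RSEM), so that 3 counts, taken here as the floor of detection, equal 0.295 to 0.339 CPM (counts scaled to library size with TMM normalization). PRDX2 mRNA stood at 153 and 159 CPM in HT29 siCon and at 85.3 and 86.0 CPM in siPrdx2, and at 202 and 238 CPM in SW480 siCon and 67.2 and 68.3 CPM in siPrdx2. It was lower by 45.1% and 69.2% (adjusted p of edgeR's quasi-likelihood test = 1.15e-09 and 0.000618). Of 11 markers of colorectal epithelium, 11 were above 1 TPM (RSEM's unit of level per transcript length) in HT29 and 6 or 7 in SW480, where FABP1 was at 0. The defining leukocyte marker PTPRC was at 0 in every library, and the leukocyte sum of 12.6 to 27.9 TPM came almost wholly from CD68. The 4 fibroblast markers summed to at most 10.4 TPM, and the endothelial, hepatocyte and adipocyte markers to at most 1.39, 3.25 and 0.91 TPM. In HT29 the summed level of the epithelial markers was 18140 to 18265 TPM in siCon and 16989 to 17094 TPM in siPrdx2, with KRT8, KRT18 and KRT19 lower and KRT20 and CDX2 higher by edgeR; CD68 was lower as well. The part of this shift in the results below was not tested.

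The control duplicates of SW480 stood apart from each other. Across 14007 genes, the log ratio of replicate 1 over replicate 2 fell with transcript GC content (Spearman's rho = -0.70), against -0.13 to -0.18 in the other groups. The same held for the 30 synthesis genes (rho = -0.93), of which 16 differed by more than 20% between the SW480 controls and only 1 or 2 did so in each of the other groups. These correlations run across genes of a library pair and are descriptions. The SW480 knockdown calls are therefore also given without either control library and with a correction for GC content.

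Promoter sequence was examined because many of these genes moved together. The reference table (RefSeq, GRCh38.p14) held 36 promoter windows for 26 of the 30 genes, each from 250 bases before to 50 bases after a transcription start. ACAT2, FDFT1, SQLE and FASN are named only. The sterol regulatory element core, TCACNCCAC, was found on either strand in 1 of the 36 windows, that of SREBF2, against 1.13% of all 35116 promoters. The shorter core CACNCCAC, which lies within the longer motif, was present for ACACA, IDI1, INSIG1, SCD and SREBF2, 13.9% of the windows against 5.87% of all promoters. The CCAAT box, bound by NF-Y, was found in 61.1% of the windows against 34.6% of all promoters, covering 19 of the 26 genes. The GC box GGGCGG was found in 86.1% against 45.0%, covering 25 genes. A match describes letters only. The stretches below are the 250 bases before a RefSeq start of genes on which the results turn, and of SREBF2. CCAAT (or its reverse complement ATTGG) is in capitals except in SREBF2. For SREBF2 only the sterol regulatory element core is in capitals, and its ATTGG is left in lower case. Coordinates are on GRCh37, where each stretch matched 1 place exactly.
HMGCS1, chr5:43313515-43313764, minus strand: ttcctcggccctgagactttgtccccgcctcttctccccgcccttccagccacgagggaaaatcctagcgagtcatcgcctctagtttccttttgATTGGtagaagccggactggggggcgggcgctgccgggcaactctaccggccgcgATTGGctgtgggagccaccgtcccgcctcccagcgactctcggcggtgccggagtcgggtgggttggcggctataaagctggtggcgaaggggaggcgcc
STARD4, chr5:110848234-110848483, minus strand: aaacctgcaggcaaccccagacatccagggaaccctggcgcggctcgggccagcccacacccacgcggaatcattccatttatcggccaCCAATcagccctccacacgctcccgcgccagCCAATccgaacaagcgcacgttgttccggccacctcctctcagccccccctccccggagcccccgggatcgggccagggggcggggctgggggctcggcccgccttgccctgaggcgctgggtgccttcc
SCD, chr10:102106740-102106989, plus strand: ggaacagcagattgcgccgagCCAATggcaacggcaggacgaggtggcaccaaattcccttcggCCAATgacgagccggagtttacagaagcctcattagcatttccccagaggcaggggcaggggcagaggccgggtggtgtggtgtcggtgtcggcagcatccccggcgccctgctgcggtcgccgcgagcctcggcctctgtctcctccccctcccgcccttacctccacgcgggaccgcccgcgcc
INSIG1, chr7:155089338-155089587, plus strand: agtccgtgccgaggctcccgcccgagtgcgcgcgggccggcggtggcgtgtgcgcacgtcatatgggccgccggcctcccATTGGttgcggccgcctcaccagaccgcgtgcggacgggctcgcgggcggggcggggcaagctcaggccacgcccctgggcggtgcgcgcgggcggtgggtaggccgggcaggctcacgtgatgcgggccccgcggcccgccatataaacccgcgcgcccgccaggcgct
SREBF2, chr22:42228859-42229108, plus strand: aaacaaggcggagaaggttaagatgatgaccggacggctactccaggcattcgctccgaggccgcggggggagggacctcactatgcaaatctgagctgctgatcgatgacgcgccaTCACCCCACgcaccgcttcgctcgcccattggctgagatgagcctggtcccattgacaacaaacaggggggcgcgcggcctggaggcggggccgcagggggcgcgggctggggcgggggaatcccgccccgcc
Counted from the RefSeq start, the CCAAT boxes began 155 and 100 bases before it in HMGCS1, 161 and 130 in STARD4, 229 and 186 in SCD, and 170 in INSIG1. The gene positions given below are from GENCODE. For HMGCS1, STARD4 and INSIG1 they place the outer start of the gene within the printed stretch, so these distances depend on the annotation.

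In HT29 cells, most enzymes of the cholesterol route were lower after PRDX2 siRNA. Of the 16 sterol enzymes, 11 passed the test as lower and no member passed it as higher. Of all 12961 genes tested, 9.82% were called lower and 7.76% higher. The largest change was in HMGCS1 (chr5:43287572-43313614), the cytosolic synthase that makes HMG-CoA for mevalonate. It fell from 110 and 109 CPM in siCon to 64.3 and 72.9 CPM in siPrdx2, a loss of 37.4% (log2 fold change -0.68 ± 0.06 SE, adjusted p = 2.07e-07 by edgeR). Every siPrdx2 library lay far below the controls, whose duplicates differed by little.

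The early enzyme ACAT2, which condenses acetyl-CoA to acetoacetyl-CoA, was called lower, from 96.2 and 89.8 CPM to 76.7 and 72.5 CPM (log2 fold change -0.32 ± 0.06). IDI1, which isomerises the isoprenoid building block, fell from 78.1 and 78.5 CPM to 59.2 and 57.4 CPM (-0.43 ± 0.06). FDPS, the farnesyl diphosphate synthase, fell from 97.9 and 90.7 CPM to 78.5 and 78.1 CPM (-0.27 ± 0.05). The groups did not overlap for any of these enzymes. The kinases MVK and PMVK between mevalonate and the isoprenoid diphosphates had overlapping groups, with log2 fold changes of -0.03 ± 0.13 and -0.06 ± 0.08. MVD, the decarboxylase that follows them, was at 37.5 CPM in each control and at 31.8 and 34.0 CPM after knockdown, and did not pass the test (adjusted p = 0.0953 by edgeR).

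The enzymes that make squalene and close it to lanosterol were lower. FDFT1, the squalene synthase, fell from 201 and 192 CPM to 172 and 169 CPM (-0.21 ± 0.04). SQLE, the squalene epoxidase, fell from 269 and 259 CPM to 214 and 212 CPM (-0.31 ± 0.04, adjusted p = 1.19e-05 by edgeR). LSS, which closes the sterol ring, fell from 67.3 and 66.1 CPM to 57.5 and 57.2 CPM (-0.22 ± 0.06). In each of them, both siPrdx2 libraries were below both controls. After lanosterol, the demethylase CYP51A1 (-0.21 ± 0.05), the reductase TM7SF2 (-0.31 ± 0.07), the isomerase EBP (-0.32 ± 0.05) and the terminal reductase DHCR7 (-0.22 ± 0.04) were called lower. DHCR7 went from 199 CPM in each control to 168 and 175 CPM. With DESeq2, CYP51A1 (adjusted p = 0.0899) and TM7SF2 (0.101) were not called, nor was LSS (0.219), and limma on TPM did not call CYP51A1 or LSS. NSDHL and HSD17B7, which act in the removal of the methyl groups, had log2 fold changes of -0.14 ± 0.06 and -0.09 ± 0.14 and were not called. The adjusted p-values of the 11 called sterol enzymes ran from 2.07e-07 to 0.0129, the highest being that of LSS, which was called in 1 of the 4 fits that each left out a library.

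Fewer fatty acid enzymes were called in HT29, 3 of the 8 that had enough counts. SCD, the desaturase that makes oleate and palmitoleate, was the most abundant of the 30 genes by TPM in HT29 siCon and fell by 22.6%. It was at 1163 and 1136 CPM in siCon and at 889 and 891 CPM in siPrdx2 (log2 fold change -0.37 ± 0.02, adjusted p = 5.77e-10 by edgeR). ACSL3, which activates fatty acids to acyl-CoA, fell from 274 and 266 CPM to 226 and 229 CPM (-0.25 ± 0.04). FASN, the fatty acid synthase, had a smaller change, from 479 and 493 CPM to 438 and 455 CPM (-0.12 ± 0.03, adjusted p = 0.00696 by edgeR), and was not called without siPrdx2 replicate 1 of HT29. Nor was FASN called with limma on TPM (adjusted p = 0.358 and 0.361 at the pseudocounts of 1 and 0.1). Of the enzymes upstream of FASN, ACLY, which makes cytosolic acetyl-CoA, had a log2 fold change of -0.09 ± 0.03 (adjusted p = 0.064 by edgeR). ACACA, which makes malonyl-CoA, had -0.07 ± 0.03 (adjusted p = 0.0821 by edgeR). Both missed the threshold here and were called lower with the GC correction (adjusted p = 0.00617 and 0.00415 by edgeR). The elongase ELOVL6, the desaturase FADS1 and the phosphatidate phosphatase LPIN1 had -0.04 ± 0.06, 0.09 ± 0.21 and -0.19 ± 0.12. FADS2, another polyunsaturated fatty acid desaturase, had 3 to 8 counts in the HT29 libraries and was below the count filter.

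Among the regulators, INSIG1 (chr7:155089486-155101945) changed most. It stood at 56.1 and 60.1 CPM in HT29 siCon and at 39.2 and 41.5 CPM in siPrdx2, lower by 30.5% (-0.53 ± 0.07, adjusted p = 2.85e-05 by edgeR). SREBF1 fell from 216 and 233 CPM to 187 and 193 CPM (-0.24 ± 0.04, adjusted p = 0.00092 by edgeR). Neither pair of groups overlapped, but limma on TPM did not call SREBF1 (adjusted p = 0.0685 and 0.0678 at the pseudocounts of 1 and 0.1). SREBF2 (-0.11 ± 0.04, adjusted p = 0.0524), SCAP (-0.11 ± 0.06, adjusted p = 0.189) and the sterol carrier STARD4 (-0.29 ± 0.10, adjusted p = 0.0619) did not pass edgeR's test, although both siPrdx2 libraries were below both controls for each. With the GC correction, SREBF2 and STARD4 were called lower in HT29 (adjusted p = 0.00829 and 0.04 by edgeR).

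**Figure D1:**
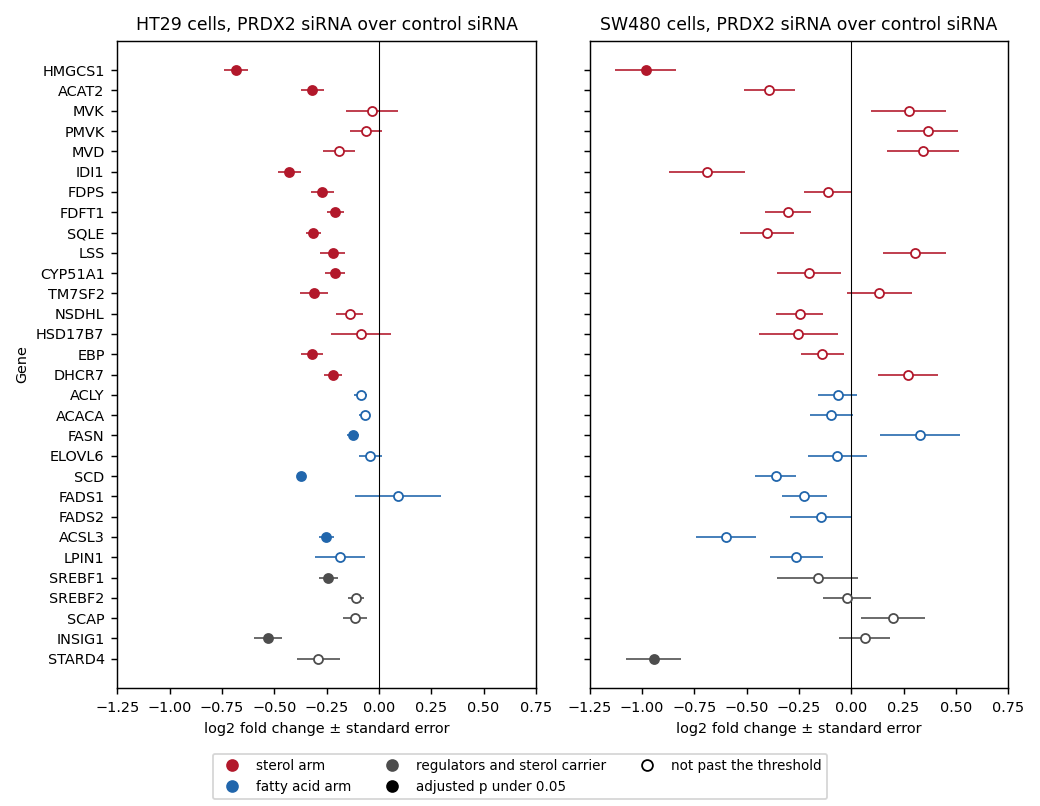
Log2 fold change of siPrdx2 over siCon (x axis, ± standard error derived from edgeR's F statistic) for the genes in HT29 (left) and SW480 (right), coloured by arm. Filled points mark an adjusted p under 0.05 in edgeR's test. In HT29, 28 of the 29 genes tested lie below 0 and 16 are filled; in SW480, HMGCS1 and STARD4 are filled and 9 genes lie above 0.

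Set side by side in HT29, the median log2 fold change was -0.22 in the sterol arm (range -0.68 to -0.03), -0.10 in the fatty acid arm (-0.37 to 0.09) and -0.24 among the regulators (-0.53 to -0.11), with the median of all genes tested at 0.00. The shares called lower were 68.8%, 37.5% and 40%. No test was made between the arms. In 24 of the 29 genes tested, both siPrdx2 libraries were below both controls, against 28.3% of all genes. Summed over an arm, the sterol enzymes went from 1498 ± 18.8 to 1307 ± 1.94 TPM (SD, n = 2 libraries) and the fatty acid enzymes from 1050 ± 0.0919 to 942 ± 2.62 TPM. The biological coefficient of variation was 0.0249 among HT29 libraries and 0.0993 among SW480 libraries. With all 8 libraries in 1 fit, which shares the spread with SW480, 3 genes were called lower (HMGCS1, SCD and INSIG1) against 0.67% of all genes.

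In SW480 cells, 2 of the 30 genes were called lower and no member was called higher, against 2.08% lower and 1.22% higher of the 14112 genes tested. HMGCS1 fell from 115 and 86.7 CPM in siCon to 49.6 and 52.2 CPM in siPrdx2, by 49.4% (log2 fold change -0.98 ± 0.15, adjusted p = 0.0138 by edgeR). STARD4 (chr5:110831731-110848288), which moves cholesterol between membranes, fell from 164 and 131 CPM to 79.5 and 74.2 CPM, by 48.0% (-0.94 ± 0.13, adjusted p = 0.0107 by edgeR). For both genes the control duplicates were spread more widely than the siPrdx2 duplicates, and the groups were well apart. Without siPrdx2 replicate 1 only STARD4 was called (HMGCS1 -0.95, adjusted p = 0.0626 by edgeR), and without siPrdx2 replicate 2 only HMGCS1 (STARD4 -0.89, adjusted p = 0.0876 by edgeR). With limma on TPM, STARD4 was called and HMGCS1 was not (adjusted p = 0.0572 and 0.0596 at the pseudocounts of 1 and 0.1). HMGCS1 was the only gene of the 30 called lower in both lines by the edgeR fits of each line. The matching share of all genes was not counted.

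The other sterol and fatty acid genes of SW480 split by direction. Both siPrdx2 libraries were below both controls in 16 genes, against 29.0% of all genes, and above them in 5 (MVK, PMVK, MVD, LSS and DHCR7). The share of all genes above both controls was not counted, so the 5 are a description. The 16 had a median GC content of 47.4% (range 37.6 to 56.0%) and the 5 had 59.0% (58.1 to 63.9%), which is the property along which the SW480 controls differed. IDI1 stood at 49.3 and 34.6 CPM in siCon and at 27.7 and 24.1 CPM in siPrdx2 (-0.69 ± 0.18, adjusted p = 0.0706 by edgeR). ACSL3 stood at 113 and 87.0 CPM and at 68.9 and 63.5 CPM (-0.60 ± 0.14, adjusted p = 0.057 by edgeR). SCD stood at 381 and 351 CPM and at 281 and 289 CPM (-0.36 ± 0.10, adjusted p = 0.0813 by edgeR). Every siPrdx2 library of these genes was below both controls, but the threshold was missed. FASN, with the highest GC content of the 30 genes (65.3%), was at 240 and 392 CPM in siCon and at 387 and 406 CPM in siPrdx2, so that its groups overlapped. INSIG1 was at 65.4 and 58.2 CPM in siCon and at 62.4 and 66.8 CPM in siPrdx2, with overlapping groups as well. Across the 30 genes, the SW480 log2 fold change rose with GC content (Pearson's r = 0.79, Spearman's rho = 0.81), and across all 13427 genes more weakly (0.42 and 0.53).

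Leaving out either control library changed the number of SW480 calls. The remaining control was then alone and was assumed to vary like the siPrdx2 libraries. Without siCon replicate 1, 14 genes were called lower and no member higher by edgeR, against 13.1% of all genes lower. Without siCon replicate 2, 13 were called lower and 9 higher, against 26.8% and 26.0% of all genes. In both of these fits 10 genes were lower: HMGCS1, ACAT2, IDI1, FDFT1, SQLE, NSDHL, EBP, SCD, ACSL3 and STARD4, against 10.1% of the genes tested in both. Of the 10, 8 were also called lower in HT29, the exceptions being NSDHL and STARD4, against 3.14% of all genes. The 9 higher genes were MVK, PMVK, MVD, LSS, TM7SF2, DHCR7, FASN, SREBF1 and SCAP, of which no member was called higher against siCon replicate 2 alone. SREBF1 changed direction, with a log2 fold change of -0.46 without replicate 1 and 0.21 without replicate 2, past the threshold in each.

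With correction for GC content, 11 genes were called lower in SW480 and no member was called higher, against 8.97% of all genes lower. They were 6 sterol enzymes (HMGCS1, ACAT2, IDI1, FDFT1, NSDHL and EBP), the fatty acid genes SCD, FADS1 and ACSL3, and SREBF1 and STARD4. HMGCS1 had a corrected log2 fold change of -0.80 (adjusted p = 0.000237 by edgeR), STARD4 -0.74 and IDI1 -0.51. The 5 genes that stood above the controls were between 0.06 and 0.18 after correction, and were not called. With the correction in both lines, 9 members were called lower in each: HMGCS1, ACAT2, IDI1, FDFT1, EBP, SCD, ACSL3, SREBF1 and STARD4, against 3.53% of all genes. Median log2 fold changes in SW480 without the correction were -0.17 for the sterol arm, -0.15 for the fatty acid arm and -0.02 for the regulators, with all genes at 0.00. With the correction they were -0.16, -0.26 and -0.17.

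In 14 genes both siPrdx2 libraries were below both controls in HT29 and in SW480, against 11.1% of all genes tested in both lines. Across the 29 genes tested in both lines, the log2 fold changes of the lines correlated with Pearson's r = 0.50 and Spearman's rho = 0.48, against 0.16 and 0.15 over all 12331 genes. After the GC correction the values were 0.45 and 0.43, against 0.24 and 0.25 over all 11814 genes. These are correlations across genes, which share the libraries of each line.

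The difference of the knockdown effect between the lines (HT29 minus SW480) was tested for every gene in 1 fit of the 8 libraries. No member passed edgeR's threshold, and 1.12% of all 14772 genes were called. An unadjusted p under 0.05 was found for 8 of the 30, against 19.2% of all genes. INSIG1 came closest, lower by 0.53 on the log2 scale in HT29 and at 0.06 in SW480, a difference of -0.59 (95% interval -0.88 to -0.30, adjusted p = 0.0629 by edgeR). DESeq2 called INSIG1 and no other member (adjusted p = 0.0429, 2.11% of all genes). STARD4 differed in the other direction by 0.65 (0.27 to 1.04, adjusted p = 0.0956 by edgeR). MVD, LSS and DHCR7 lay below the controls in HT29 and above them in SW480, with differences of -0.53, -0.52 and -0.49 (adjusted p = 0.178, 0.147 and 0.144 by edgeR). For HMGCS1 the difference was 0.30 (-0.07 to 0.68) and for SCD -0.01 (-0.19 to 0.18). With the GC correction, 4 members were called, against 6.78% of all genes: INSIG1 (-0.72), DHCR7 (-0.32), LSS (-0.36) and STARD4 (0.44). Leaving out SW480 siCon replicate 1 gave 5 calls and leaving out replicate 2 gave 17, against 9.32% and 35.7% of all genes. INSIG1, DHCR7, LSS and STARD4 were among the calls in both.

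Between the siCon groups, the lines differed in these genes about as often as in genes at large. In siCon, 15 members were called higher in HT29 and 7 in SW480, against 34.2% and 39.0% of all genes. In either direction that was 22 members, against 73.2%. The 7 and the 22 include FADS2, which passed the count filter only through SW480, so its call is a description. With the GC correction 26 members, again including FADS2, were called, against 79.9%. The sterol arm was of similar summed level, 1498 ± 18.8 TPM in HT29 and 1417 ± 17.9 TPM in SW480 (SD, n = 2). Within it, 8 enzymes were called higher in HT29, 2 were called higher in SW480 and 6 were not called. SQLE was 2.22-fold higher in HT29 (269 and 259 CPM against 133 and 105 CPM, log2 difference 1.15 ± 0.10) and IDI1 1.87-fold higher. CYP51A1 was 1.68-fold higher in SW480 and EBP 1.38-fold higher. HMGCS1, LSS, NSDHL and HSD17B7 had overlapping control groups.

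The fatty acid arm had a summed level of 1050 ± 0.0919 TPM in HT29 siCon and 737 ± 9.35 TPM in SW480 siCon, and its 8 enzymes other than FADS2 were called by edgeR. ACACA (514 and 510 CPM in HT29, 149 and 155 CPM in SW480) was 3.37-fold higher in HT29, SCD 3.14-fold and ACSL3 2.70-fold. The polyunsaturated fatty acid desaturases were reversed. FADS1 was at 4.98 and 4.74 CPM in HT29 and at 212 and 190.5 CPM in SW480, 41.4-fold higher in SW480 (log2 difference -5.37 ± 0.12, adjusted p = 1.27e-11 by edgeR). FADS2, its neighbour on chromosome 11, was at 0.424 and 0.862 CPM (4 and 8 counts) in HT29 and at 30.6 and 38.2 CPM in SW480. It passed the count filter only through SW480, so its difference is a description, with log2 values from -6.30 to -4.19 across the fits. Exons of FADS1 and FADS2 overlap on opposite strands and the library kit does not mark strand, so reads from the overlap cannot be assigned. LPIN1 was 2.68-fold higher in SW480. The elongase ELOVL5, a gene of the same route that is not among the 30, was listed at 0 in the 4 HT29 libraries and at 131 to 153 TPM in SW480.

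Of the regulators, SREBF1 was 3.19-fold higher in HT29 siCon (216 and 233 CPM against 54.2 and 86.6 CPM) and SREBF2 1.78-fold higher (245 and 254 CPM against 130 and 151 CPM). STARD4 was 6.76-fold higher in SW480 (22.1 and 21.7 CPM in HT29, log2 difference -2.76 ± 0.12, adjusted p = 2.18e-09 by edgeR). SCAP and INSIG1 were not called, with log2 differences of -0.28 ± 0.13 and -0.09 ± 0.09.

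**Figure D2:**
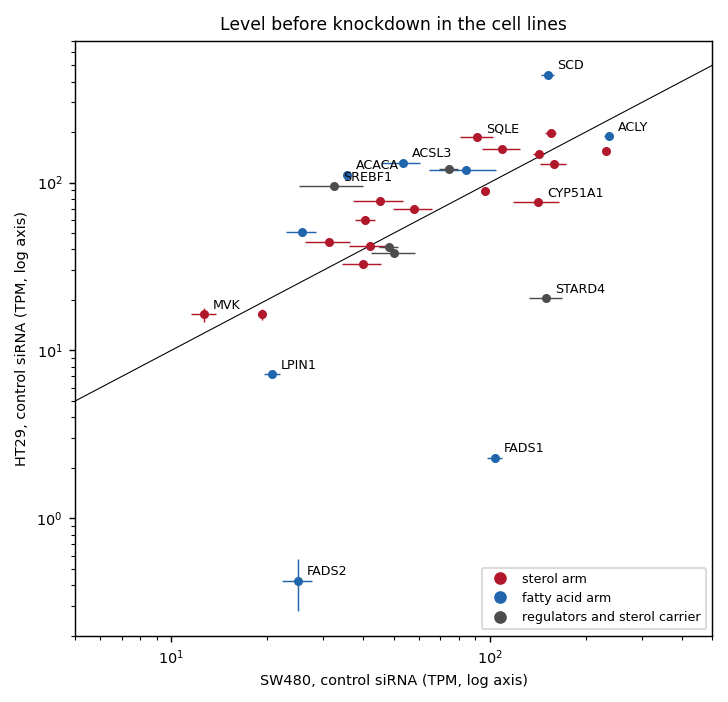
Mean TPM of each of the 30 genes in SW480 siCon (x axis, log scale) and HT29 siCon (y axis, log scale), with a line of equality. Bars run from the lower to the higher of the 2 libraries. Most genes lie near the line, SCD, ACACA and SREBF1 lie above it, and FADS1, FADS2, STARD4 and LPIN1 lie below it.

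By TPM, the order of the genes in HT29 siCon began with SCD (443 and 434 TPM), FDFT1 (203 and 193), ACLY (185 and 193) and SQLE (189 and 183), where FDFT1, ACLY and SQLE were close to one another. In SW480 siCon it began with ACLY (229 and 244 TPM) and EBP (231 and 233), which overlapped, and then ACAT2 (174 and 144). STARD4 was the sixth most abundant in SW480 at 168 and 133 TPM and ranked 25 in HT29 at 20.6 and 20.2 TPM. The abundance-weighted transcript length was the same in all 8 libraries for 18 of the genes, and varied by more than 3% only in LPIN1, from 4857 to 5327 bases. Besides the FADS pair, exons of other genes overlap those of many members in the annotation, and without strand information their reads could be shared. Examples are ACAT2 (TCP1), MVK (MMAB), CYP51A1 (AKAP9), TM7SF2 (VPS51), SREBF1 (RAI1), HMGCS1 (ENSG00000261604) and STARD4 (STARD4-AS1).

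Genes of the same routes outside the 30 were also counted. Of all genes tested, 9.82% were called lower and 7.76% higher in HT29, and 2.08% and 1.22% in SW480. In SW480, 29.0% of all genes lay below both controls, and 8.97% were called lower with the GC correction. The lists are small, so counts near these shares are descriptions. In HT29, 2 of 10 later sterol and isoprenoid genes were lower and 2 were higher: MSMO1, which demethylates sterols (-0.33 ± 0.10), and LBR, a sterol reductase of the nuclear envelope (-0.31 ± 0.04), were lower, and the farnesyltransferase subunit FNTB (1.05 ± 0.22) and the dolichol enzyme DHDDS (0.24 ± 0.08) were higher. Of 10 other fatty acid and glycerolipid genes tested, the citrate carrier SLC25A1 was lower (-0.33 ± 0.04). Of 6 SREBP processing genes, the sterol-responsive TMEM97 was lower (-0.20 ± 0.05). Of 9 LXR and efflux genes, MYLIP (-0.48 ± 0.11) and NR1H3 (-0.24 ± 0.08), which encodes LXR alpha, were lower, and of 8 fatty acid oxidation genes CPT1A and ACADVL were lower (-0.18 ± 0.04 and -0.13 ± 0.04). The medians of these 5 lists in HT29 lay between -0.08 and -0.01. In SW480 they were -0.33 for the later sterol and isoprenoid genes, of which 8 of 10 lay below both controls, -0.18 for SREBP processing (5 of 6 below), -0.13 for fatty acid oxidation, -0.04 for LXR and efflux and 0.05 for the other fatty acid genes. With the GC correction they were -0.15, -0.19, -0.07, -0.15 and -0.10. In SW480, MSMO1 (-0.71 ± 0.15, adjusted p = 0.0386 by edgeR) and the SREBP protease MBTPS2 (-0.58 ± 0.12, adjusted p = 0.038 by edgeR) were lower, and no other gene of the 5 lists was called. Both stayed called with the GC correction (-0.47 and -0.38) and without either control library (-0.52 and -0.53 without siCon replicate 1, -0.89 and -0.63 without replicate 2). With the GC correction SCD5, MBTPS1, TMEM97, NR1H2, NPC2 and CPT2 were also called lower, and ME1 was called higher (0.48).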

How the data were processed

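The 8 tables hold, per gene, expected counts, TPM and FPKM made by the authors with RSEM on refGene after MapSplice alignment to hg19, with FastQC in the submitters' processing notes. The steps are described for HT29; those of SW480 are not given in the sources used here. The deposited expected counts were rounded; the deposited TPM gave levels between genes, and the authors' FPKM gave no result. Genes reaching 10 counts in 2 or more libraries of a fit were tested with edgeR 4.0.16 in R 4.3.3 (glmQLFit and glmQLFTest, TMM, Benjamini-Hochberg over all genes tested, threshold 0.05). Each knockdown was fitted on the 4 libraries of its line, and the difference and the control comparison on all 8. Alternatives were DESeq2 1.42.0, limma 3.58.1 on log-transformed TPM with a pseudocount of 1 or 0.1, RLE factors, no filter, a replicate block, a loess GC offset (span 0.5) and leaving out each library. GC content and positions came from GENCODE on GRCh37. Standard errors were derived from edgeR's log2 fold change and F statistic. The 95% intervals used these and the median total degrees of freedom over all genes of the fit. The scripts were tested on simulated data.

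All 30 members are named, with values per library for those called or with the largest changes. The members and lists were chosen with earlier results of these data known, so counts within them are descriptions. Libraries were grouped by their labels, and counting precision is given by the floor of 3 counts. THRSP was never tested, and SC5D was matched under its older symbol.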

Additional observations from a re-analysis of the deposited data

How the results depend on the processing

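In HT29 every member called was lower. The count was 16 (9.82% of all genes lower), and 3 with all 8 libraries in 1 fit (0.67%). Under the other alternatives that kept every library, the count was 12 to 21 (4.2% to 13.5% of all genes lower). In SW480 it was 2, against 4 with DESeq2 (3.14% of all genes lower), 7 with the replicate block (6.16%), 11 with the GC correction (8.97%), 14 with both (11.5%), 1 with limma (0.624% or 0.496%) and 9 with all 8 libraries, 8 lower and PMVK higher (9.07%); leaving out each library gave 1 to 22, and SREBF1 was at -0.46 without siCon replicate 1 and turned to 0.21 without siCon replicate 2. For the difference between lines the count was 0, against 1 with DESeq2, 4 with the GC correction and 3 with both; leaving out each library gave 0 to 17. The control comparison gave 22 members, FADS2 among them (73.2% of all genes called), and 26 with the GC correction (79.9%). With the correction and the block it gave 26 as well, against 11166 of all 14007 genes. The count also varied when a library was left out.

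The arm medians moved as follows. For the fatty acid arm, the HT29 median was -0.040 with limma at either pseudocount, and -0.12 to -0.09 without each library. In SW480 the median was -0.26 with the GC correction, with or without the block, and -0.044 and -0.045 with limma, and -0.22 to -0.14 without each library. For the difference it was -0.045 with the GC correction and -0.046 with both, 0.00012 and -0.00053 with limma, and -0.014 to 0.041 without each library. For the control comparison it was 0.65 with the block, 0.41 with the GC correction, 0.41 with both and 0.54 with limma, and 0.31 to 0.97 without each library; the sterol arm had 0.17 with limma there. Without each library the sterol medians were -0.24 to -0.21 in HT29, -0.18 to -0.13 in SW480, -0.13 to -0.05 for the difference and 0.27 to 0.40 between controls, and the regulators' were -0.28 to -0.18, -0.13 to 0.08, -0.47 to 0.016 and -0.14 to -0.01. Limma on TPM put the median of all genes at -0.16 or -0.18 in the control comparison, against -0.06, and its calls over all genes split into 548 lower and 1252 higher in HT29 and 88 and 126 in SW480, against 1273 and 1006, and 294 and 172. The cause of these shifts was not tested.

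The replicate numbers were not used as pairs: with 2 pairs a line and no shared batch in the labels, deviations of same-numbered libraries correlated at 0.10 (HT29) and 0.11 (SW480). With the replicate block, 20 members were called in HT29, all lower, against 12.2% of all genes lower. In SW480, 7 were called, 6 lower (6.16% of all genes) and FASN higher, and none was called for the difference.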
